A study of Rattus norvegicus with 18 samples.

Results

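The aryl hydrocarbon receptor and its best known transcriptional targets were followed in neonatal rat ventricular cells after brief exposure to the myosin II inhibitor blebbistatin, a small molecule that stops the motor's ATPase cycle. The 7 genes were taken by name from the deposited expression table: the receptor gene Ahr, its DNA-binding partner Arnt, the repressor gene Ahrr, the target genes Cyp1a1, Cyp1a2 and Cyp1b1, and the feedback gene Tiparp, listed there in capitals as AHR, ARNT, AHRR, CYP1A1, CYP1A2, CYP1B1 and TIPARP. All 7 were among the 28909 genes listed, and 6 passed the filter on low values, among 15204 genes tested in all. The set was proposed with the blebbistatin comparison of these same libraries already known, so the values of the 7 genes below are a description and carry no test.

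The treated group was 3 RNA libraries from cells given 25 µM blebbistatin, and its control was 3 RNA libraries from cells given the solvent DMSO, both for 0.5 h. The series' design text also gives the dose as 0.25, written with the same unit. All cells were wild-type ventricular cells of 1-day-old SD rats, first plated briefly to remove cells that attach faster than cardiomyocytes, then kept on collagen in low-serum medium. The labels do not say that libraries of a group came from separate preparations, so any spread or p-value covers these libraries only. The series has 18 samples, and its 12 chromatin samples are not analysed here. The comparison holds 1 compound, with neither an inactive analog nor another myosin inhibitor beside it, so an effect through myosin and an effect of the molecule by another route cannot be told apart here.

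The aryl hydrocarbon receptor is a ligand-activated transcription factor of the bHLH-PAS family. It waits in the cytosol with the chaperone HSP90, and after binding a planar aromatic ligand it enters the nucleus, pairs with ARNT and binds DNA at xenobiotic response elements. Cyp1a1 is its classic target and is often used as a readout of receptor activity, while the products of Ahrr and Tiparp feed back to restrain it.

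Values are CPM, the share of each library assigned to a gene scaled to the same total in all libraries. Nearly all values (99.1 to 99.2% per library) were whole multiples, within 0.02, of a smallest step of 0.0158 to 0.0168 CPM. That step would mean 59.6 to 63.3 M counted units per library. The most frequent value above 0 was 4 steps in all 6 libraries, and genes at 8, 12, 16, 20, 24 or 28 steps were 1.74 to 2.01 times as many as genes 1 step to either side. If 4 steps rather than 1 stand for a sequenced fragment, depth was 14.9 to 15.8 M fragments. For the low gene Cyp1a1 the count is given under both readings, and intervals under the reading of 4 steps only. CPM is not corrected for gene length, so levels are compared between libraries and not between genes.

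DMSO replicate 1 stood apart from the rest: on the first principal component (42% of the variance) it lay at 77.4, and the other 5 libraries between -34.6 and 3.04. At the far end lay 1 library of each group, blebbistatin replicate 1 at -34.6 and DMSO replicate 3 at -33.9, so this axis ran through both groups. In mean log2 level against the mean of the other libraries, its red blood cell list (5 genes) differed by 1.35, its macrophage list (11 genes) by -0.89 and its cardiomyocyte list (14 genes) by -0.47. Its ribosomal protein list (27 genes) differed by -1.03, or by -0.66 over the 26 genes other than Rps19, which was listed at 0 in that library. The cardiomyocyte genes went both ways in DMSO replicate 1: Myh7 was highest there, at 19644 CPM, and Nppa lowest, at 495 CPM. The summed level of that list there was 33767 CPM, inside the range of the other libraries. Log2 fold changes and list medians printed below that this library moves by more than 1.5 times, or whose sign it turns, are therefore also given without it. Genes and lists given by their levels only are not covered by this rule. The cardiomyocyte label was checked against 14 measured markers, none of which was at 0, with summed levels of 31648 to 33809 CPM with blebbistatin and 31724 to 33954 CPM with DMSO. Fibroblast markers were also abundant, since 14 of 14 were above 0 and Col1a1 averaged 22355 CPM. In bulk RNA such as this, fewer cells of a type and less RNA per cell cannot be told apart.

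Cyp1a1 encodes the inducible cytochrome P450 that oxidizes polycyclic aromatic compounds. It was at 1.41, 1.58 and 2.16 CPM in blebbistatin replicates 1, 2 and 3, against 1.01, 0.604 and 0.713 CPM in DMSO replicates 1, 2 and 3. All 3 treated libraries lay above all 3 controls, and DMSO replicate 1 was the highest control. After scaling between libraries the means were 1.69 ± 0.39 CPM with blebbistatin and 0.793 ± 0.259 CPM with DMSO (SD, n = 3 each). The log2 fold change, on values with 0.1 CPM added, was 1.02 ± 0.33 (SE). It was 1.25 ± 0.33 without DMSO replicate 1 and ran from 0.85 to 1.25 when each library was left out in turn.

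The Cyp1a1 level was low, and this limits its precision. The blebbistatin libraries held 87, 100 and 133 steps for it, and the DMSO libraries 61, 36 and 44 steps. Read as fragments of 4 steps, the exact Poisson 95% intervals, which cover counting error only, were 0.892 to 2.15, 1.02 to 2.33 and 1.47 to 3.01 CPM with blebbistatin. They were 0.555 to 1.64, 0.276 to 1.15 and 0.356 to 1.28 CPM with DMSO. The interval of blebbistatin replicate 3 lay above those of DMSO replicates 2 and 3, and every other pair of treated and control intervals overlapped. Intervals with 1 step as the unit would be narrower and were not computed.

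Among all genes tested, the limma test called 3 at an adjusted p under 0.05, 0.0197% of them, and none of the 6 measured receptor genes was among these. Without adjustment, 231 genes (1.52%) had a p under 0.05, and 50.7% of genes tested had a positive log2 fold change. These shares are the background for the list counts below, where a count of none in a short list says little. No unadjusted p is given for the 6, which were chosen on this comparison. On values scaled between libraries by TMM factors, the groups did not overlap, with blebbistatin higher, for 3.24% of genes tested and for 1 of the 6, Cyp1a1. On deposited values this held for 3.62% of genes tested and for 2 of the 6, Cyp1a1 and Tiparp. Ordered by log2 fold change from the highest, Cyp1a1 stood at place 207 of 15204, with 1.35% of genes above it. Low genes vary more: of 1688 genes with a mean between 0.622 and 2.49 CPM, Cyp1a1 included, 50 had a fold change at least as large, and 14 of these also had non-overlapping groups. Since Cyp1a1 was chosen on this comparison, nothing is read from these ranks.

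**Figure D1:**
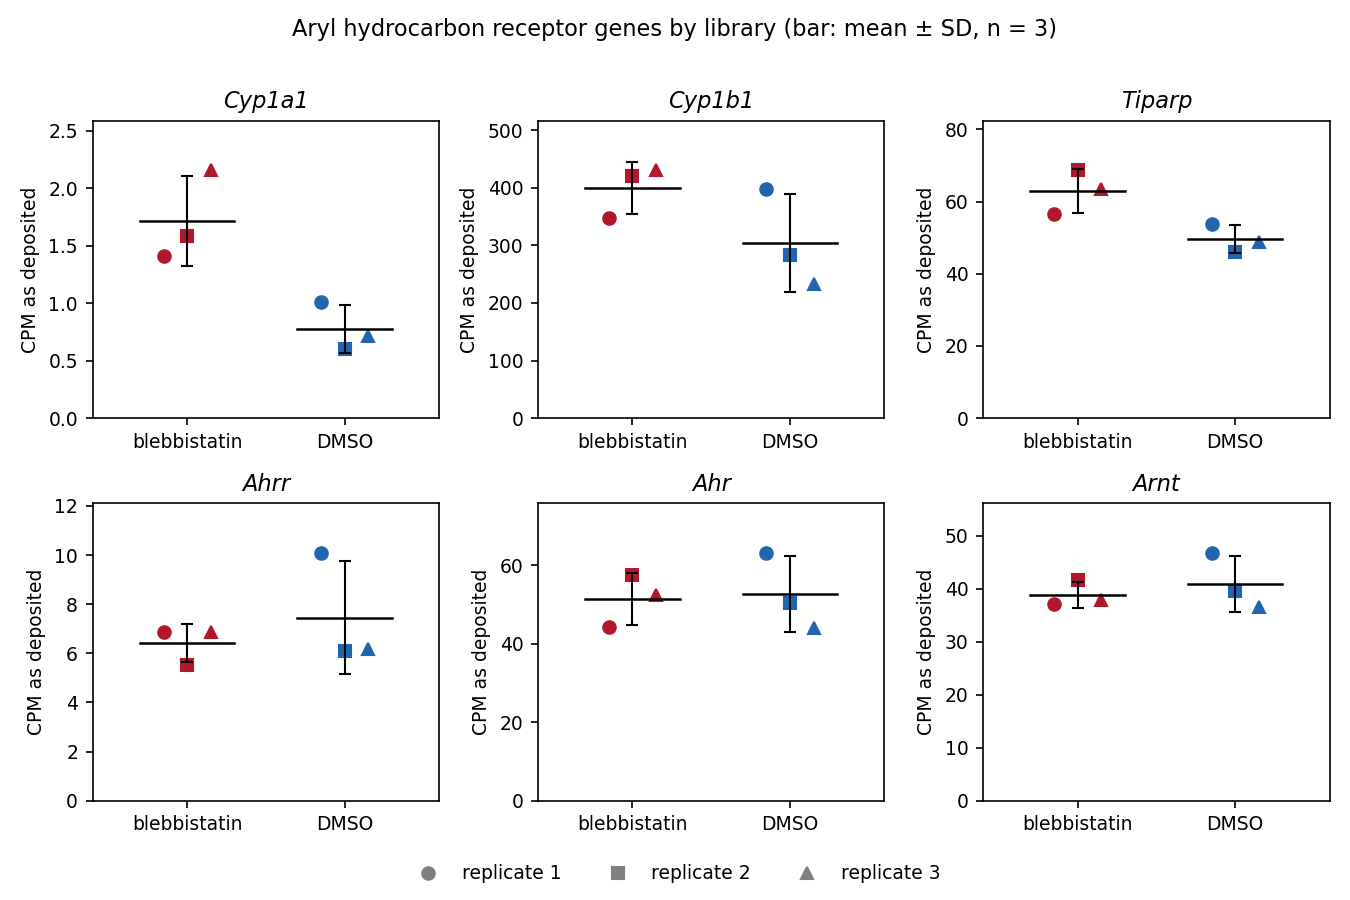
Deposited CPM (vertical axes, from 0) of the 6 measured genes in each blebbistatin library (red) and each DMSO library (blue), with 1 point per library and bars for the mean ± SD of 3. Cyp1a1 was at 1.41 to 2.16 CPM with blebbistatin and at 0.604 to 1.01 CPM with DMSO; for Ahr, Ahrr and Arnt the highest of the 6 points is DMSO replicate 1.

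Cyp1a2, the neighbouring P450 gene and mainly an enzyme of the liver, was listed at 0 in all 6 libraries. Read as fragments of 4 steps, the exact Poisson 95% interval of a 0 reached up to 0.233 to 0.239 CPM in the blebbistatin libraries. In the DMSO libraries it reached up to 0.239 to 0.247 CPM. Expression below these levels cannot be told from absence, and the intervals cover counting error only.

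Cyp1b1, which codes for a P450 found mostly outside the liver, including in mesenchymal cells, was at 347.5, 420 and 430 CPM in blebbistatin replicates 1, 2 and 3, against 397, 283 and 232 CPM in DMSO replicates 1, 2 and 3. DMSO replicate 1 lay inside the treated range and the other controls lay below it, so the groups overlapped. After TMM scaling DMSO replicate 1, at 428 CPM, lay above every treated library, the highest of which was blebbistatin replicate 3 at 424 CPM. The scaled means were 394 ± 49.3 CPM with blebbistatin and 311 ± 104 CPM with DMSO (SD, n = 3 each), and the log2 fold change was 0.38 ± 0.24 (SE). Without DMSO replicate 1 it was 0.64 ± 0.15, and without DMSO replicate 3 it was 0.18 ± 0.22. The fibroblast list, whose summed level was 42423 to 47779 CPM with blebbistatin and 42749 to 49489 CPM with DMSO, had a median log2 fold change of -0.072, with 4 of 14 markers positive. The endothelial list, with 11 measured markers and none at 0, summed to 358 to 416 CPM with blebbistatin and 349 to 442 CPM with DMSO. Both sums overlapped between the groups. The macrophage list summed to 165 to 192 CPM with blebbistatin and 88.2 to 189.7 CPM with DMSO, with 10 of 11 markers positive and a median log2 fold change of 0.28, or 5 of 11 and -0.018 without DMSO replicate 1. The red blood cell list summed to 60.3 to 69.1 CPM with blebbistatin and 69.3 to 185 CPM with DMSO, with 0 of 5 markers positive and a median of -0.56, or 1 of 5 and -0.053 without that library. The smooth muscle and pericyte list (10 genes) summed to 5736 to 6254 CPM with blebbistatin and 5059 to 6363 CPM with DMSO. It had 5 of 10 markers positive and a median of 0.048, or 6 of 10 and 0.026 without that library. The part of these lists in the values of the receptor set was not tested.

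Tiparp encodes a mono-ADP-ribosyltransferase that modifies the receptor and limits its signal. It was at 56.5, 68.7 and 63.5 CPM in blebbistatin replicates 1, 2 and 3, against 53.9, 46.2 and 48.9 CPM in DMSO replicates 1, 2 and 3. The deposited values of the groups did not overlap. After TMM scaling they did, because DMSO replicate 1 moved to 58.1 CPM, above blebbistatin replicate 1 at 54.9 CPM. The scaled means were 62.1 ± 7.03 CPM with blebbistatin and 50.5 ± 6.65 CPM with DMSO (SD, n = 3 each). The log2 fold change was 0.30 ± 0.15 (SE), and 0.41 ± 0.13 without DMSO replicate 1.

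Ahrr, whose product competes with the receptor for ARNT, was at 6.87, 5.52 and 6.86 CPM in blebbistatin replicates 1, 2 and 3, against 10.1, 6.09 and 6.19 CPM in DMSO replicates 1, 2 and 3. DMSO replicate 1 was the highest of the 6 libraries, and the other 5 lay between 5.52 and 6.87 CPM. The log2 fold change of -0.22 ± 0.27 (SE) took the other sign, 0.061 ± 0.18, without that library. Among the genes known as receptor targets, the Cyp1a1, Cyp1b1 and Tiparp means were thus higher with blebbistatin, and the Ahrr mean was not.

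The genes of the receptor dimer itself had overlapping groups. Ahr was at 44.2, 57.5 and 52.5 CPM in blebbistatin replicates 1, 2 and 3, against 63.2, 50.5 and 44.1 CPM in DMSO replicates 1, 2 and 3. Its log2 fold change was -0.065 ± 0.20 (SE), and 0.12 ± 0.15 without DMSO replicate 1. Arnt was at 37.2, 41.7 and 37.8 CPM in blebbistatin replicates 1, 2 and 3, against 46.8, 39.5 and 36.5 CPM in DMSO replicates 1, 2 and 3. Its log2 fold change was -0.11 ± 0.16, and 0.038 ± 0.12 without DMSO replicate 1. For Ahr, Arnt and Ahrr alike that library was the highest, and with it left out the group means lay within 0.12 of each other on the log2 scale.

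**Figure D2:**
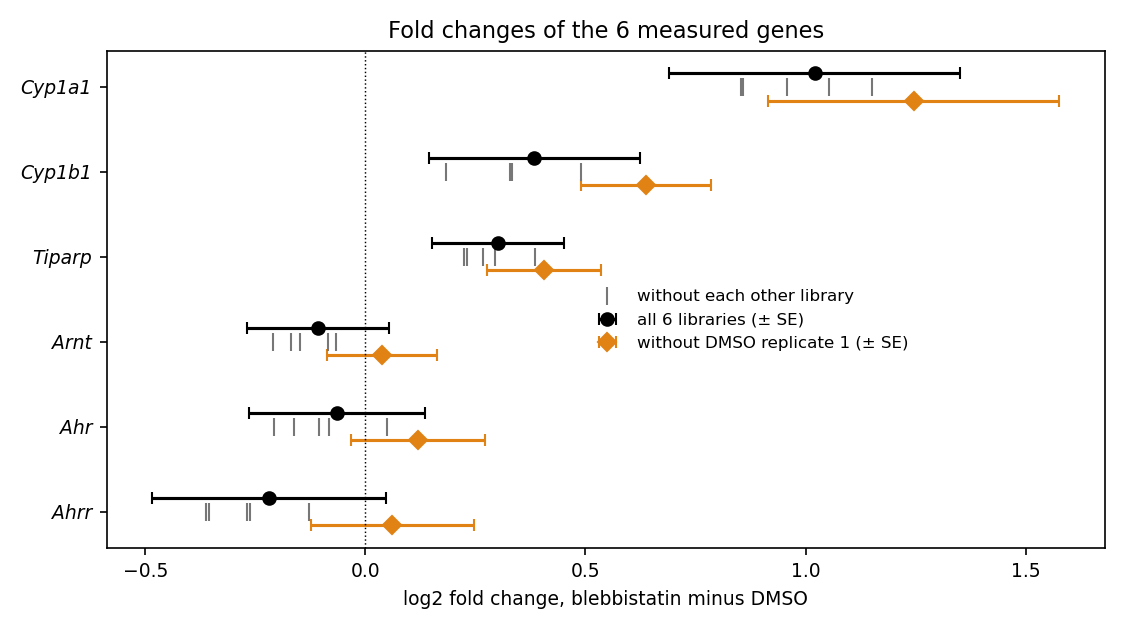
Log2 fold change (horizontal axis, blebbistatin minus DMSO) of the 6 measured genes with all 6 libraries (black, ± SE), without DMSO replicate 1 (orange, ± SE) and without each other library (grey ticks). The Cyp1a1, Cyp1b1 and Tiparp values stayed above 0 throughout, while those of Arnt, Ahr and Ahrr moved to 0.038, 0.12 and 0.061 without DMSO replicate 1.

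Because 1 control library was high for several of these genes at once, each target was also divided by Ahr in the same library, a ratio that does not depend on scaling between libraries. This ratio was chosen after the values were seen, Ahr itself being highest in DMSO replicate 1, so for every gene it lowers that control relative to the other controls. Ahr was lowest in DMSO replicate 3 and blebbistatin replicate 1, at 44.1 and 44.2 CPM, which also lay lowest on the first principal component. Division by Ahr raises each of them relative to the rest of its group. The Cyp1a1 ratio was 3.35 ± 0.69% with blebbistatin and 1.47 ± 0.24% with DMSO (SD, n = 3 each). The Cyp1b1 ratio was 7.79 ± 0.45 with blebbistatin and 5.71 ± 0.51 with DMSO, and ran from 7.3 to 8.2 in blebbistatin libraries and from 5.27 to 6.28 in DMSO libraries. The Tiparp ratio was 1.23 ± 0.046 with blebbistatin and 0.958 ± 0.134 with DMSO, and ran from 1.2 to 1.28 in blebbistatin libraries and from 0.852 to 1.11 in DMSO libraries. For these 3 targets the treated ratios lay above the control ratios, which was so for 1.51% of the other genes tested when divided by Ahr in the same way. The Ahrr ratio did overlap, at 9.59 to 15.6% with blebbistatin and 12.1 to 16% with DMSO, as did the ratio of Ahr to Arnt, at 1.19 to 1.39 with blebbistatin and 1.21 to 1.35 with DMSO. These ratios come from the same comparison that chose the genes, and nothing is read from them.

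**Figure D3:**
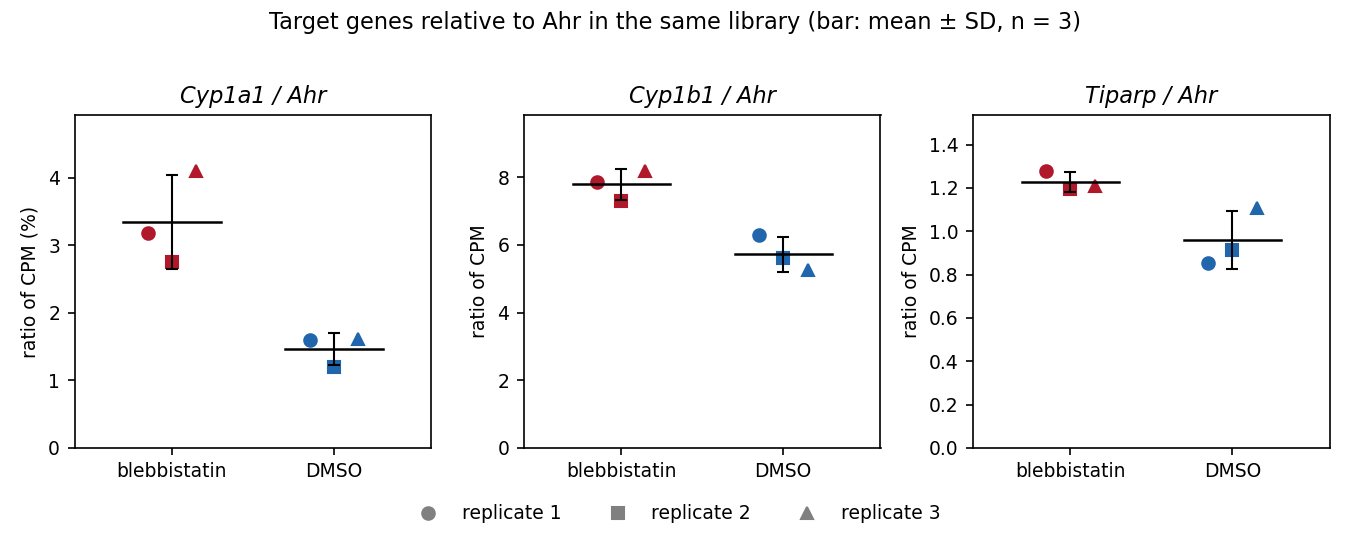
CPM of Cyp1a1, Cyp1b1 and Tiparp divided by the CPM of Ahr in the same library (vertical axes, from 0; percent for Cyp1a1), in blebbistatin (red) and DMSO (blue) libraries, with bars for the mean ± SD of 3. In each panel the 3 treated points lie above the 3 control points, for Cyp1b1 at 7.3 to 8.2 with blebbistatin and 5.27 to 6.28 with DMSO.

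The receptor and ARNT bind the core GCGTG of the xenobiotic response element. RefSeq promoter windows (GRCr8, 250 bases before to 50 after the start) were matched for 6 of the 7 genes by symbol, all but Cyp1a1, and searched for GCGTG on both strands, which reads CACGC on the other. Cyp1b1 held 2 matches, 81 and 20 bases before its start, and Tiparp held 1, at 136 bases. Ahrr held 3, at 142, 117 and 57 bases, and Arnt held 1, at 42 bases, while the Ahr and Cyp1a2 windows held none. Of all 33469 windows, 29.7% held at least 1 match and 3.42% held 3 or more. The longer form TNGCGTG, of which every match contains the core, was in 4.89% of all windows and in those of Ahrr and Cyp1b1. A match is a description of letters, not of binding. The 250 bases before the start are shown for both windowed targets whose means were higher with blebbistatin and for Ahrr, the target that held the most matches and whose mean was not, with the core in capitals. They lie at chr6:21094315-21094564, chr2:152063519-152063768 and chr1:30821969-30822218, each on the + strand, in the order Cyp1b1, Tiparp, Ahrr.
Cyp1b1: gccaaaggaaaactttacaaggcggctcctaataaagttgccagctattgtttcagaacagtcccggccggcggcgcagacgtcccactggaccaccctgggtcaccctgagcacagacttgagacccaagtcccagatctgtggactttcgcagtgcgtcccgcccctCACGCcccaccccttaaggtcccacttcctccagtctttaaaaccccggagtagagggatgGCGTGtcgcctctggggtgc
Tiparp: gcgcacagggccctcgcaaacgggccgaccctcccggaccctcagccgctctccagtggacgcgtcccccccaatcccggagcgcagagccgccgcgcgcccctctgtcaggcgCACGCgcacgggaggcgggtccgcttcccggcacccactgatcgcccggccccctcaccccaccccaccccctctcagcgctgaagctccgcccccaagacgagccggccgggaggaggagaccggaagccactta
Ahrr: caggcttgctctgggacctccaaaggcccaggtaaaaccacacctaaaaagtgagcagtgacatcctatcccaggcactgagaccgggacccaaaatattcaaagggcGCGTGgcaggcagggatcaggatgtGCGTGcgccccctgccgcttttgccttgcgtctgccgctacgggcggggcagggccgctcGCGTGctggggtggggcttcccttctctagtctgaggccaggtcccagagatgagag

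Other reported receptor targets were described as a list of 30 genes outside the 7, written from general knowledge of the pathway. Of these, 26 were in the table, 2 were at 0 in every library and 20 were tested. The limma test called none higher and none lower, with 0 at an unadjusted p under 0.05, and 10 had a positive and 10 a negative log2 fold change. The list's median was 0.0035, beside 0.004 for all genes tested. It was -0.050, with 9 of 20 positive, without DMSO replicate 1. Nqo1, the quinone reductase gene shared with the NRF2 pathway, was at 111 ± 6.32 CPM with blebbistatin and 101 ± 9.1 CPM with DMSO (SD, n = 3 each), and its log2 fold change was 0.14 ± 0.12 (SE), or 0.089 without that library.

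The 4 genes of that list with the lowest unadjusted p were Serpinb2, Xdh, Il1b and Cyp2s1, each with a limma adjusted p of 0.991 over all genes tested. Serpinb2, a plasminogen activator inhibitor gene, was at 0.873, 0.569 and 0.486 CPM in blebbistatin replicates 1, 2 and 3, against 1.06, 1.01 and 1.04 CPM in DMSO replicates 1, 2 and 3. All 3 treated libraries lay below the controls, and the log2 fold change was -0.68 ± 0.32 (SE). Such separation, with blebbistatin lower, was found for 2.89% of all genes tested. For Xdh, which encodes xanthine dehydrogenase, the log2 fold change was -0.37 ± 0.23, or -0.21 without DMSO replicate 1, and for the P450 gene Cyp2s1 it was -0.42 ± 0.36. For the inflammatory cytokine gene Il1b it was 0.45 ± 0.38, and 0.051 without DMSO replicate 1. Aldh3a1, an aldehyde dehydrogenase gene and classic receptor target in liver, was at 0.711, 1.09 and 0.584 CPM with blebbistatin, against 0.0827, 0.939 and 0.599 CPM with DMSO. Its groups overlapped, and its log2 fold change of 0.75 ± 0.65 was 0.036 without DMSO replicate 1.

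Of 13 measured chaperones and coactivators of the receptor, none was called by limma (0 at an unadjusted p under 0.05, beside 1.52% of all genes tested). A negative log2 fold change was found for 12, where 50.7% of all genes tested were positive, and the list's median was -0.18. Without DMSO replicate 1 the median was 0.025 and 8 of 13 were positive. Arnt2, the second ARNT gene, was at 23 ± 0.934 CPM with blebbistatin and 25.8 ± 3.4 CPM with DMSO (SD, n = 3 each), a log2 fold change of -0.16 ± 0.14 (SE, limma adjusted p = 0.991), or -0.060 without DMSO replicate 1. Med1 and Ncoa3, transcriptional coactivator genes, had log2 fold changes of -0.20 ± 0.19 and -0.25 ± 0.24. Without that library, which held the highest value of both genes, they were -0.0066 and -0.021.

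Across the other bHLH-PAS and PAS genes listed, 17 were tested, none was called by limma (1 at an unadjusted p under 0.05, Per1), and the median was -0.12, or -0.0025 without DMSO replicate 1. Arnt2, Ncoa1, Ncoa2 and Ncoa3 are also in the list of chaperones and coactivators, so the lists are not independent. The clock gene Per1 was at 20.2, 19.9 and 18.3 CPM in blebbistatin replicates 1, 2 and 3, against 22.6, 25.3 and 23.6 CPM in DMSO replicates 1, 2 and 3. Its groups did not overlap, and its log2 fold change was -0.33 ± 0.13 (SE, limma adjusted p = 0.991). Npas4, an activity-induced factor gene of neurons, was at 0.76, 0.348 and 0.892 CPM with blebbistatin, against 1.12, 1.14 and 1.31 CPM with DMSO. Its log2 fold change was -0.86 ± 0.37, and -0.86 without DMSO replicate 1. The groups of Npas4 did not overlap either. Such separation, with blebbistatin lower, thus held for 2 of the 17, Per1 and Npas4, and for 2.89% of all genes tested. Clock and Arntl (now named Bmal1), the core clock pair, had log2 fold changes of -0.43 ± 0.26 and 0.26 ± 0.19. They were -0.21 and 0.058 without DMSO replicate 1.

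In the poly(ADP-ribose) polymerase family to which Tiparp belongs, none of 14 other tested genes was called by limma (0 at an unadjusted p under 0.05), and the median was -0.033, with 5 positive. It was 0.046, with 9 positive, without DMSO replicate 1. Parp16 was at 7.53 ± 0.34 CPM with blebbistatin and 5.58 ± 0.94 CPM with DMSO (SD, n = 3 each), and Parp9 at 32.2 ± 0.92 CPM with blebbistatin and 27 ± 2.96 CPM with DMSO. For both, the treated libraries lay above the controls, with log2 fold changes of 0.44 ± 0.19 and 0.26 ± 0.13 (SE, limma adjusted p = 0.991 each). Such separation was found for 3.24% of all genes tested.

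Apart from the CYP1 genes, the table lists 68 cytochrome P450 names. Of these, 28 were at 0 in every library, 23 were tested and limma called none (0 at an unadjusted p under 0.05). Their median log2 fold change was -0.051, in a range of -0.74 for Cyp2d3 to 0.93 ± 0.65 (SE) for Cyp46a1. The Cyp1a1 value of 1.02 ± 0.33 (SE) lay above all 23. Since Cyp1a1 was chosen on this comparison, nothing is read from that order, with or without DMSO replicate 1. Without DMSO replicate 1 the median was 0.049, with 15 of 23 positive, the Cyp2d3 value was -1.11 and that of Cyp1a1 was 1.25, the highest of the 23 then being 1.03 for Cyp2j10. Cyp46a1, a cholesterol hydroxylase gene, was at 1.42 ± 0.22 CPM with blebbistatin and 0.924 ± 0.756 CPM with DMSO (SD, n = 3 each), and its log2 fold change was 0.17 without DMSO replicate 1. Cyp4v3, with the lowest unadjusted p of the family, had a log2 fold change of -0.38 ± 0.22 (SE, limma adjusted p = 0.991). Treated libraries lay above the controls for 3 of the 23, named after their values were seen: Cyp2t1, Cyp27a1 and Cyp4f6, with log2 fold changes of 0.28, 0.14 and 0.13. The share of all genes tested was 3.24%.

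Genes under other xenobiotic sensors were set beside these. Of 21 NRF2 targets limma called none (1 at an unadjusted p under 0.05, Osgin1). A positive log2 fold change was found for 16, against 50.7% of all genes tested, and a negative one for 5. The list's median was 0.10. Without DMSO replicate 1 it was 0.026 and 11 were positive. Osgin1, a growth inhibitor gene induced by oxidative stress, was at 16, 14.9 and 17.1 CPM in blebbistatin replicates 1, 2 and 3, against 6.5, 11.8 and 11.8 CPM in DMSO replicates 1, 2 and 3, with the lowest value in DMSO replicate 1. Its log2 fold change was 0.68 ± 0.22 (SE, limma adjusted p = 0.991), and 0.44 without that library. After TMM scaling the groups did not overlap for Osgin1, with blebbistatin higher. They did not overlap for Mafg either, with blebbistatin lower, at a log2 fold change of -0.20 ± 0.12 (SE). Such separation was found for 3.24% (higher) and 2.89% (lower) of all genes tested. Of 18 measured genes of the PXR and CAR list, which covers drug-induced P450s and transporters, 6 were at 0 in every library and 8 were tested. Limma called none of the 8 (0 at an unadjusted p under 0.05), and their median was -0.017, or 0.070 with 6 of 8 positive without DMSO replicate 1. The lowest unadjusted p there belonged to the stress gene Gadd45b, at 0.65 ± 0.37 on the log2 scale, or 0.22 without DMSO replicate 1.

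**Figure D4:**
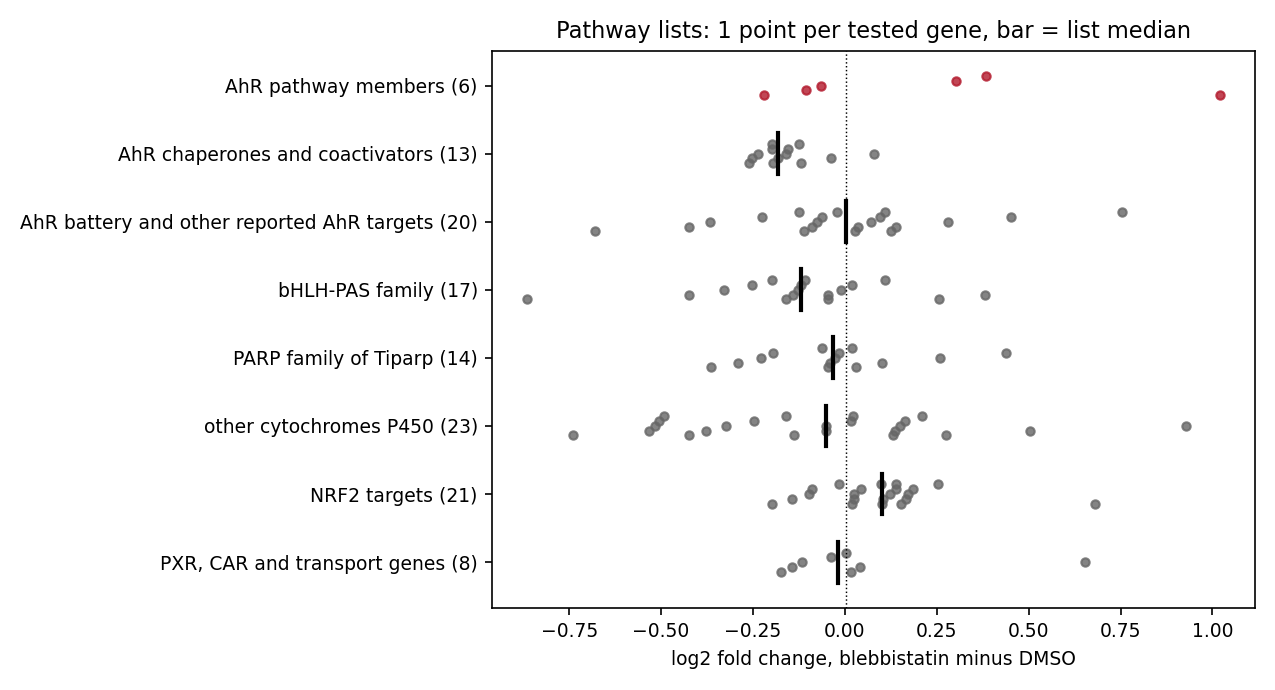
Log2 fold change (horizontal axis, blebbistatin minus DMSO) of each tested gene in the receptor set (red) and in 7 pathway lists (grey, number of genes tested in brackets), with a black bar for each list's median and a dotted line at the median of all genes tested, 0.004. Cyp1a1 is the red point at 1.02; the 20 other reported receptor targets lie evenly to both sides of 0, with a median of 0.0035.

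The genes whose profile lay nearest to that of Cyp1a1 were ranked by the mean absolute difference of centred log2 values over the 6 libraries. They were Tspan33, Mab21l2, Ier5l, RT1-N2 and Tas1r3, at distances of 0.17 to 0.213. Ier5l, the only one above 2 CPM in these libraries, was at 53.3, 61.6 and 77.1 CPM in blebbistatin replicates 1, 2 and 3, against 44.8, 42.8 and 33.5 CPM in DMSO replicates 1, 2 and 3. The genes nearest to Tiparp were Pex6, Usp29, Slc4a5, Abca4 and Fam204a, at distances of 0.0231 to 0.067. Pex6, a peroxisome assembly gene, was at 21.8, 26.4 and 24.5 CPM with blebbistatin, against 20.9, 16.9 and 18.5 CPM with DMSO. None of the 7 receptor genes was among the nearest to either.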

How the data were processed

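RNA from 3 blebbistatin and 3 DMSO libraries was analysed. The authors deposited CPM values per gene, 1 column per library, each with the same total. Per the submitters' processing notes, rn6 was the build, and the tools were Trim Galore, HISAT2 2.1.0, BWA, StringTie 1.3.4, MACS2 2.1.0 and edgeR 3.20.9, for RNA and chromatin together and with no roles given. Annotation, strand setting and counting rule are not given in the sources used here, so overlapping or similar genes are uncertain.

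Values were divided by TMM factors (0.928 to 1.03, unweighted, trims 0.3 and 0.05), and log2(CPM + 0.1) was fitted with limma 3.58.1 in R 4.3.3 (trend and robust settings, no block, two-sided). Genes needed 0.162 CPM, 10 steps at the median depth, in 3 libraries. Benjamini-Hochberg adjusted p under 0.05 over all genes was the threshold. Means ± SD use TMM-scaled values, and values of single libraries are as deposited. Every pair of libraries differed beyond counting error (chi-square over its degrees of freedom at least 9.84 on fragments of 4 steps), so none was counted as a duplicate.

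The 7 genes, the lists and the test were chosen with earlier results of these data known. Named genes are the 7, up to 4 per list with the lowest unadjusted p, 5 with the nearest profile to Cyp1a1 and to Tiparp, and others where said; Nqo1, Aldh3a1, Cyp2d3 and Cyp2j10 were added after their values were seen. RefSeq also gives AHRR as an older name of Cyp1a1; the row was taken as Ahrr by its symbol. The result for 1 gene of a list is not reported here.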

Additional observations from a re-analysis of the deposited data

How the results depend on the processing

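Count models were not run, because the CPM values do not settle whether 1 or 4 steps stand for a sequenced fragment. The other alternatives were RLE, library-size and upper-quartile scaling, no filter, at least 1 CPM or (chosen after seeing the data) 40 steps in 3 libraries, pseudocounts of 0.5 and 1 CPM, a replicate block and each library left out. No gene of the receptor set or of the pathway lists was called under any of these. The Cyp1a1 log2 fold change was 0.59 with a pseudocount of 1 CPM, close to the gene's own level, and 0.77 to 1.06 under the other 8 alternatives that keep all libraries. The 1 gene called higher of all tested became 0 without a filter, with pseudocounts of 0.5 or 1 CPM and with the replicate block. The 4 receptor genes with a GCGTG core numbered 2 with TNGCGTG, a longer motif.

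Leaving out each library gave 3 to 6 genes called in all, 0 to 4 of them higher. Log2 fold changes ran from 0.85 to 1.25 for Cyp1a1, 0.18 to 0.64 for Cyp1b1 and 0.22 to 0.41 for Tiparp. They changed sign for Ahr (-0.21 to 0.12, and 0.049 without blebbistatin replicate 1), Ahrr (-0.36 to 0.061), Arnt (-0.21 to 0.038) and the median of the other receptor targets (-0.050 to 0.076). All 4 had the other sign without DMSO replicate 1. The cause was not tested.

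The replicate numbers were checked as pairs: after subtracting group means, libraries 1, 2 and 3 correlated with their namesakes at -0.29, 0.054 and -0.092, so the numbers were not taken to pair the samples. With the replicate block 2 genes were called in place of 3, and Cyp1a1 was at 1.02 ± 0.38.

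Among the 6 measured receptor genes Cyp1a1 had the fewest steps, 36 to 133 per library, which would be 9 to 33 fragments if 4 steps stand for 1.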
